A study of Mus musculus with 17 samples.

Results

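The 36 genes described here are interferon-stimulated genes, the transcripts that cells make in response to type I interferon and that carry much of their antiviral defence. They were taken as a list of names, not chosen by a measured value, and are 36 of the 53679 genes in the count tables. All 36 passed the filter on low counts, which left 16246 genes for testing. The list holds 5 sensors of viral nucleic acid, 2 receptor subunits, 3 transcription factors, 4 IFIT proteins, 5 OAS proteins, 2 Mx GTPases, 2 genes of the ISG15 system, 3 genes of the PARP and DTX3L group and 10 other antiviral effectors.

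RNA was sequenced from CD8+ T cells of C57BL/6 mice that were wild type (WT) for Cblb or carried a CBLB knockout (KO). Cblb encodes a ubiquitin ligase that restrains T cell activation. The cells were unstimulated, or had received anti-CD3 alone or anti-CD3 with anti-CD28 for 12 h, antibodies that engage the T cell receptor and its costimulatory receptor. No time is given for the unstimulated cells, and no group kept for 12 h without antibody is labelled. The antibodies and the 12 h in culture therefore cannot be told apart in any comparison with unstimulated cells. Rises and falls with stimulation are differences from the unstimulated group. Each of the 6 groups had 3 libraries, except WT cells given both antibodies, which had 2 (replicates 2 and 3), for 17 libraries in all. The labels name a purity of more than 99% CD8+ cells for the stimulated cells, give no age and do not say which part of Cblb is deleted. They also do not say whether replicates came from separate mice, and the error behind each p-value may be technical.

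Total counts ran from 16635826 to 38269033 per library, apart from KO unstimulated replicate 2 with 160059285. Cblb lay between 63.9 and 95.9 CPM (a gene's count per 1000000 counts of the TMM-scaled library total) in KO libraries and between 139.5 and 190.1 CPM in WT libraries, so the targeted gene was lower in every KO library. The 7 markers of CD8 T cells summed to between 3707 and 4069 CPM in unstimulated and between 2216 and 2458 CPM in stimulated libraries, and the 3 CD4 T cell markers to at most 2.62 CPM in any library. Libraries differed in how counts depended on GC content, from -1.15 (KO both-antibody replicate 3) to 1.15 (KO unstimulated replicate 2) on a log2 scale of GC-rich against GC-poor genes. KO unstimulated replicate 3 stood apart in the interferon genes themselves. Of the 36 members, 32 were highest there among the 3 libraries of its group, where 35.7% of all tested genes were. Total counts of calls and medians of the 36 members, and the ranking of groups, are also given without this library where they rest on it. Values of the wider gene lists and counts of values below 0 are given with it only.

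Type I interferon is a family of cytokines, the interferons alpha and beta, that bind a receptor of the subunits IFNAR1 and IFNAR2. The receptor activates the kinases JAK1 and TYK2, and a complex that holds STAT2 and IRF9 then binds interferon-stimulated response elements in target promoters, and the products block viral entry, translation and replication. T cells also hold a basal level of these transcripts without infection, and interferon gamma, which activated CD8+ T cells secrete, induces part of the same genes through its own receptor.

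The core of the response element is a pair of GAAA blocks, searched here as GAAA, any 2 bases and GAAA on both strands of the window from 250 bases before to 50 bases after each RefSeq start on GRCm38.p6. Of the 26 members with a window, 13 (50%) held a match to this motif, beside 3.99% of 27025 RefSeq genes and 3.44% of all windows of that length. The STAT dimer motif TTCNNNGAA was found in 7 of the 26 (26.9%), beside 9.55% of genes. The motifs can share bases. A match describes letters in a window and does not show binding. The 250 bases before the start are printed for 5 members whose direction after stimulation differed in WT cells, with the matches to this paired motif on either strand in capitals. Ifit1, Ddx60 and Rsad2 fell with anti-CD3, while Ifit3 and Stat2 rose.
Ifit1 (chr19:34640639-34640888, plus strand): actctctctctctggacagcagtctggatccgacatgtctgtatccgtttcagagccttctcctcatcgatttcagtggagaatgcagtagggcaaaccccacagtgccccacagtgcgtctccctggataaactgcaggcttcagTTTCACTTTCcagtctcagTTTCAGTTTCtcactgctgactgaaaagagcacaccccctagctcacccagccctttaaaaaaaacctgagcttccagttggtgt
Ddx60 (chr8:61927837-61928086, plus strand): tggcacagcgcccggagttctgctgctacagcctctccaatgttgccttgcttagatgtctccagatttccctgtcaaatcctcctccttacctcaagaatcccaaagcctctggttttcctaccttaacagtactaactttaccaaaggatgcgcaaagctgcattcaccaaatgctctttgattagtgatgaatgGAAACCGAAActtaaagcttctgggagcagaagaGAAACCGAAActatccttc
Rsad2 (chr12:26456453-26456702, minus strand): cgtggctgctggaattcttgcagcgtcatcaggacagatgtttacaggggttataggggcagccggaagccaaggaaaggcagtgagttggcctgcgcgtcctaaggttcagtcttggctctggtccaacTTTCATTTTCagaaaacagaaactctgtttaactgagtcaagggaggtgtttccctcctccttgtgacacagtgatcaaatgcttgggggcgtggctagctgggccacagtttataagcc
Ifit3 (chr19:34583279-34583528, plus strand): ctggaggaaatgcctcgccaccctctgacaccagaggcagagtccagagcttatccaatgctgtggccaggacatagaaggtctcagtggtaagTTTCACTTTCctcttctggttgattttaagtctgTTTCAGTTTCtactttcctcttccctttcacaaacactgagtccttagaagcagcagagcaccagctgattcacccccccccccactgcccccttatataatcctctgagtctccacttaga
Stat2 (chr10:128270248-128270497, plus strand): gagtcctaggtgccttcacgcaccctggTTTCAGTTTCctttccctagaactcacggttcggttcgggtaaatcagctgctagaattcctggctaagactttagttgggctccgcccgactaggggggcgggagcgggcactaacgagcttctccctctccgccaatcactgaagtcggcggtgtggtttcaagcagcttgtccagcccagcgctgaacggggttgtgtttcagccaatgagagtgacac
Ifit1 and Ifit3, neighbours on chromosome 19, each held 2 matches, as did Ddx60. Among members with a window, a match was present in 4 of 8 that fell, 3 of 7 that rose and 6 of 11 that passed in neither direction in WT cells given anti-CD3. Dtx3l, which rose, had no match in its window, and no match says only that these letters are not there.

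Between unstimulated and stimulated cells the 36 genes did not move as a block. With anti-CD3, 10 rose and 12 fell in WT cells, a share of 61.1% called where 24.4% of all tested genes were (adjusted p below 0.05, edgeR), 11.3% higher and 13.1% lower. In KO cells 4 rose and 18 fell, again 61.1%, beside 36.9% of all genes, 19.6% higher and 17.3% lower. The median log2 fold change of the members was -0.01 in WT and -0.43 in KO cells, and that of all genes was -0.00 and 0.02. The 2 genotypes have no library in common, and their calls can be set side by side. All 12 genes that fell in WT cells were among the 18 that fell in KO cells, and all 4 that rose in KO cells were among the 10 that rose in WT cells. Of all genes, 9.9% fell in both genotypes and 3.16% in WT cells only, while 8.38% rose in both and 11.2% in KO cells only. No member rose in one genotype and fell in the other with anti-CD3, which was rare among all genes too. Of these, 0.00616% rose in WT and fell in KO cells, and 0.0246% did the reverse. The remaining 6 of the 10 passed only in WT cells and the remaining 6 of the 18 only in KO cells, beside 2.87% and 7.35% of all genes. That difference needs the interaction test given further on.

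With both antibodies, 13 members rose and 10 fell in WT cells, beside 34.1% of all genes called, 17.8% higher and 16.3% lower. The WT rises rest on few libraries: 7 rose and 9 fell without WT both-antibody replicate 3, 8 and 9 without replicate 2, and 8 and 10 without WT unstimulated replicate 1. Of all genes, 16.8%, 18.2% and 24.7% were called in these fits. In KO cells 5 rose and 17 fell, beside 45.4% of all genes, 23.0% higher and 22.5% lower. These comparisons use the same unstimulated libraries as those with anti-CD3 alone, so the values are given side by side and are not independent. Median log2 fold changes of the members were -0.10 in WT and -0.34 in KO cells. Without KO unstimulated replicate 3, the KO counts were 6 higher and 16 lower with anti-CD3 and 8 higher and 16 lower with both antibodies. Of all genes, 37.5% and 46.6% were called in these fits. The members' median in KO cells moved to -0.18 with anti-CD3 and to -0.23 with both antibodies.

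**Figure D1:**
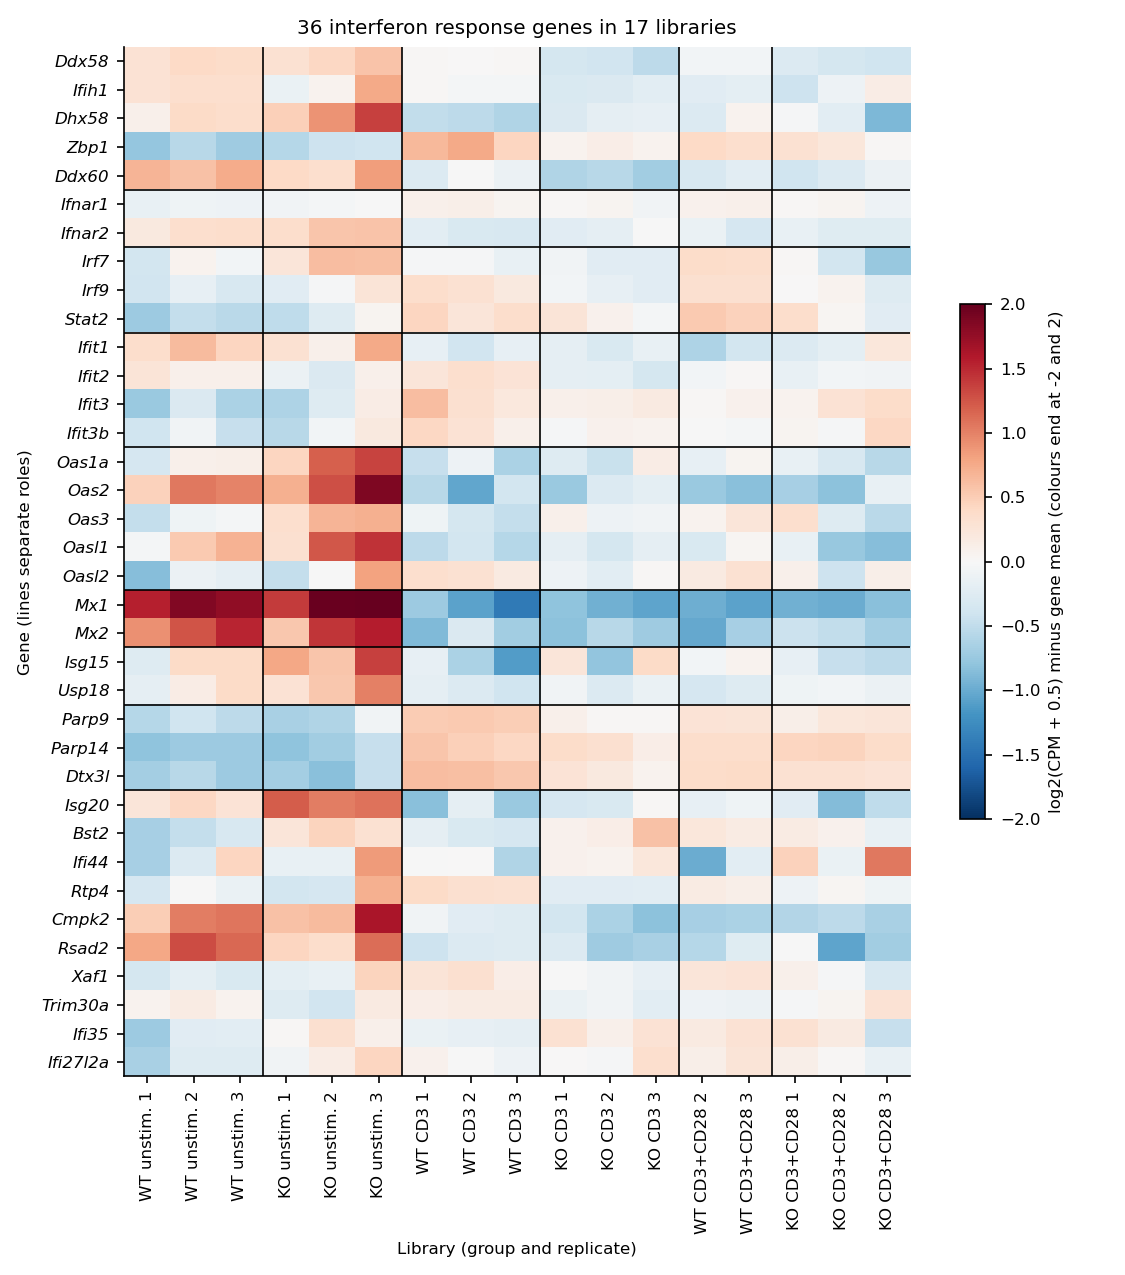
Level of each of the 36 genes (rows, grouped by role) in each of the 17 libraries (columns), as log2(CPM + 0.5) minus the gene's mean over libraries, with colours ending at -2 and 2. Mx1, Mx2, Oas2, Rsad2 and Cmpk2 are red in the 6 unstimulated libraries and blue in the stimulated ones, Zbp1, Parp9, Parp14 and Dtx3l show the opposite, and KO unstimulated replicate 3 is red in most genes.

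The receptor subunits moved apart. Ifnar2 was 62.3, 68.4 and 69.0 CPM in WT unstimulated and 46.7, 43.7 and 43.6 CPM in WT anti-CD3 libraries, and 69.3, 79.6 and 80.4 against 46.3, 48.0 and 54.1 CPM in KO libraries. Stimulated and unstimulated libraries did not overlap in either genotype. Ifnar2 fell by 0.58 in WT (SE 0.09, adjusted p = 0.000157) and by 0.63 in KO cells (SE 0.09, adjusted p = 4.07e-05) on the log2 scale. Ifnar1 was 159.2, 166.8 and 164.5 CPM in WT unstimulated and 190.0, 192.4 and 184.8 CPM in WT anti-CD3 libraries, a log2 change of 0.21 (SE 0.07, adjusted p = 0.0371). That call is weak, since 10 of 26 alternative fits lost it (adjusted p from 0.00368 to 0.163). In KO cells the Ifnar1 change was 0.04 (SE 0.07, adjusted p = 0.716).

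The sensors of viral nucleic acid divided in the same way. Ddx58, which encodes the RNA sensor RIG-I, was 164.6, 176.4 and 172.3 CPM in WT unstimulated, 136.3, 134.8 and 136.9 CPM in WT anti-CD3, 165.3, 178.5 and 199.7 CPM in KO unstimulated and 105.6, 103.3 and 93.2 CPM in KO anti-CD3 libraries. Stimulated libraries lay below unstimulated ones in both genotypes, and the KO anti-CD3 libraries were the lowest. Ddx58 fell by 0.33 in WT (SE 0.08, adjusted p = 0.00587) and by 0.85 in KO cells (SE 0.08, adjusted p = 4.77e-07). Ddx60, a helicase linked to RIG-I signalling, fell in both genotypes (log2 -0.80 in WT and -1.16 in KO cells), as did Dhx58, which encodes LGP2, a regulator of RNA sensing (-0.87 and -1.21). Ifih1, the gene of the RNA sensor MDA5, changed by -0.34 in WT (adjusted p = 0.164) and fell by 0.55 in KO cells (adjusted p = 0.0191), a call lost without KO unstimulated replicate 3 (adjusted p = 0.0936) or without either of KO anti-CD3 replicates 1 and 2. Zbp1, a sensor of Z-form nucleic acid that can start necroptosis, went the other way. It was 54.8, 63.8 and 57.5 CPM in WT unstimulated against 147.2, 160.2 and 126.7 CPM in WT anti-CD3 libraries, and 63.5, 70.7 and 71.1 against 99.2, 102.8 and 99.2 CPM in KO libraries. Its log2 rise was 1.3 in WT (SE 0.10, adjusted p = 4.03e-08) and 0.55 in KO cells (SE 0.10, adjusted p = 0.000279).

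Of the transcription factors, Stat2 and Irf9, both parts of the interferon complex, rose in WT cells. Stat2 was 28.4, 33.7 and 32.5 CPM in WT unstimulated and 63.5, 55.8 and 60.2 CPM in WT anti-CD3 libraries, with no overlap and a log2 rise of 0.92 (SE 0.15, adjusted p = 0.000162). In KO cells it was 33.0, 39.6 and 49.1 against 56.4, 50.1 and 46.0 CPM, groups that overlapped, with a log2 change of 0.33 (SE 0.15, adjusted p = 0.0891). Irf9 rose by 0.57 in WT (SE 0.11, adjusted p = 0.00122) and changed by -0.16 in KO cells (SE 0.11, adjusted p = 0.287). The annotation has Irf9 share 123 bases with Rnf31 on the same strand, so part of its reads may be divided. Irf7, which amplifies interferon production, was 45.7, 61.5 and 56.4 CPM in WT unstimulated, 58.1, 57.9 and 52.8 CPM in WT anti-CD3 and 75.8 and 75.4 CPM in WT both-antibody libraries. In KO libraries it was 69.7, 90.3 and 89.2 CPM unstimulated, 55.9, 50.3 and 50.02 CPM with anti-CD3 and 59.7, 45.5 and 34.5 CPM with both antibodies. Its mean was highest in unstimulated KO cells and, among WT groups, in cells given both antibodies. It was called in opposite directions. It changed by 0.05 in WT cells given anti-CD3 (adjusted p = 0.874) and rose by 0.47 with both antibodies (adjusted p = 0.0422), while in KO cells it fell with both treatments (-0.68 and -0.84, adjusted p = 0.00238 and 0.000403). The Irf7 rise in WT cells was kept by 13 of 26 alternative fits.

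IFIT proteins bind viral RNA and block its translation, and their genes form a cluster on chromosome 19, with Ifit1 at chr19:34640871-34650009 and Ifit3 at chr19:34583531-34588731 on the plus strand of GRCm38. Ifit1 was 35.3, 43.3 and 37.3 CPM in WT unstimulated and 24.6, 21.0 and 24.6 CPM in WT anti-CD3 libraries, a log2 fall of 0.72 (SE 0.16, adjusted p = 0.00278), and it fell by 0.63 in KO cells (SE 0.16, adjusted p = 0.00519). Its neighbour Ifit3 was 39.8, 55.1 and 43.3 against 103.3, 84.2 and 77.4 CPM in the same WT groups, a log2 rise of 0.94 (SE 0.16, adjusted p = 0.000396). The groups did not overlap for either gene, so in the same WT libraries Ifit1 was lower and Ifit3 higher. Ifit3b, a near copy of Ifit3 with which it may share reads, rose by 0.59 in WT cells (adjusted p = 0.0227). In KO cells Ifit3 changed by 0.34 (adjusted p = 0.112) and Ifit3b by 0.16 (adjusted p = 0.53). Ifit2 was called with neither treatment in either genotype (log2 change with anti-CD3 of 0.13 in WT and -0.14 in KO cells).

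OAS proteins make short oligoadenylates that activate RNase L, and OASL proteins are relatives with other antiviral roles. None of the 5 rose in any of the 4 stimulation comparisons. Oas2 was 5.77, 8.97 and 8.60 CPM in WT unstimulated against 2.62, 1.73 and 3.04 CPM in WT anti-CD3 libraries, and 6.96, 10.6 and 16.1 against 2.23, 3.26 and 3.50 CPM in KO libraries, with no overlap in either genotype. Oas2 fell by 1.67 in WT (SE 0.30, adjusted p = 0.000578) and by 1.89 in KO cells (SE 0.30, adjusted p = 9.76e-05). Oasl1, which dampens Irf7 translation, fell with anti-CD3 (-1.06 in WT and -1.48 in KO cells), a call lost in WT cells without WT anti-CD3 replicate 3 or WT unstimulated replicate 2 or 3. Oas1a was 9.66, 16.7 and 18.8 CPM in KO unstimulated against 5.81, 5.01 and 7.83 CPM in KO anti-CD3 libraries, with no overlap, while the WT groups, from 5.45 to 7.70 and from 4.34 to 6.54 CPM, overlapped. Oas1a changed by -0.38 in WT (adjusted p = 0.289) and fell by 1.26 in KO cells (adjusted p = 0.000489), while Oas3 changed by -0.12 (adjusted p = 0.704) and fell by 0.61 (adjusted p = 0.014). The Oas3 call was lost without KO anti-CD3 replicate 2 or 3 or KO unstimulated replicate 2 (adjusted p from 0.0503 to 0.0531). Oas1a belongs to a family of close copies, so its reads may be divided. Oasl2 was called in none of these 4 comparisons (0.65 in WT, adjusted p = 0.0814, and -0.29 in KO cells, adjusted p = 0.401, with anti-CD3).

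The genes of the Mx GTPases, a family that can trap viral particles, had the largest falls of the 36 genes. Whether these mice make working Mx proteins was not tested. Mx1 was 16, 19.7 and 18.7 CPM in WT unstimulated, 2.90, 2.17 and 1.61 CPM in WT anti-CD3 and 2.34 and 2.15 CPM in WT both-antibody libraries. KO libraries had 14.3, 21.5 and 27.2 CPM unstimulated, 2.71, 2.36 and 2.19 CPM with anti-CD3 and 2.39, 2.30 and 2.64 CPM with both antibodies. Every unstimulated library lay above every stimulated one. The log2 fall with anti-CD3 was -3.05 in WT (SE 0.23, adjusted p = 3.14e-08) and -3.12 in KO cells (SE 0.23, adjusted p = 1.72e-08), or 8.29-fold and 8.72-fold, and with both antibodies it was -3.01 and -3.11. Mx2 was between 2.62 and 4.24 CPM in WT unstimulated and between 0.398 and 0.853 CPM in WT anti-CD3 libraries, and fell in both genotypes (-2.46 in WT, SE 0.34, and -2.73 in KO cells, SE 0.35). Mx1 (chr16:97447035-97462907, GRCm38, minus strand) and Mx2 (chr16:97535308-97560900, plus strand) are similar in sequence, and Mx2 is annotated as a polymorphic pseudogene.

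**Figure D2:**
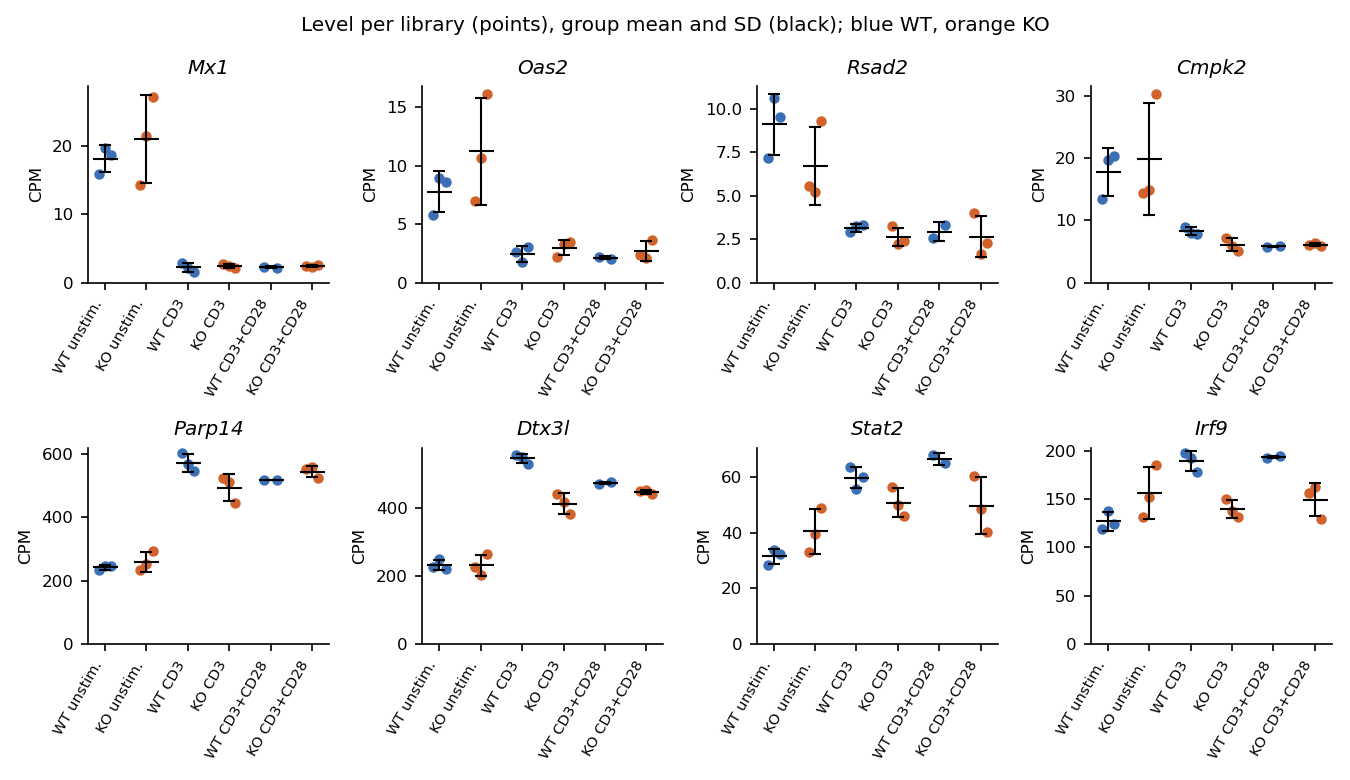
CPM of 8 interferon response genes in each library (points, blue WT and orange KO) by group, with group mean and SD in black and axes from 0. Mx1, Oas2, Rsad2 and Cmpk2 lie lower in all stimulated groups, Parp14 and Dtx3l lie higher, and Stat2 and Irf9 have their highest group means in stimulated WT cells.

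ISG15 is a ubiquitin-like modifier and USP18 removes it and damps interferon receptor signalling. Isg15 was 2.01, 3.38 and 3.40 CPM in WT unstimulated and 2.16, 1.42 and 0.875 CPM in WT anti-CD3 libraries, overlapping groups with a log2 change of -1.01 (SE 0.37, adjusted p = 0.0559). In KO cells it was 4.60, 3.88 and 7.24 against 3.05, 1.24 and 3.39 CPM, a fall of 0.97 (SE 0.34, adjusted p = 0.0346). The KO call was lost without KO unstimulated replicate 3 (adjusted p = 0.126) or without KO anti-CD3 replicate 2 (adjusted p = 0.141). Usp18 was 22.3, 28.1 and 33.2 CPM in WT unstimulated against 22.3, 20.9 and 19.2 CPM in WT anti-CD3 libraries, and 31.3, 37.3 and 51.3 against 24.1, 21.0 and 23.1 CPM in KO libraries, where the groups did not overlap. Usp18 fell by 0.81 in KO cells (adjusted p = 0.000579) and changed by -0.42 in WT cells (adjusted p = 0.0592).

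PARP9 and DTX3L form a complex that modifies histones with ADP-ribose and ubiquitin, and PARP14 is another interferon-induced ADP-ribosyltransferase. All 3 rose in every stimulation comparison, as did 5.23% of all genes. Parp14 was 233.3, 244.5 and 247.0 CPM in WT unstimulated against 600.7, 567.7 and 545.1 CPM in WT anti-CD3 libraries, and 231.9, 251.6 and 294.2 against 523.9, 510.1 and 444.9 CPM in KO libraries. Its log2 rise was 1.24 in WT (SE 0.09, adjusted p = 3.06e-08) and 0.93 in KO cells (SE 0.09, adjusted p = 6.42e-07), and with both antibodies 1.10 and 1.07. Dtx3l was 227.5, 249.6 and 221.2 against 558.4, 552.1 and 531.9 CPM in WT and 226.6, 204.8 and 264.6 against 441.3, 418.6 and 382.5 CPM in KO libraries. No stimulated library of either gene overlapped the unstimulated ones. Dtx3l rose by 1.23 in WT and 0.84 in KO cells, and Parp9 by 1.00 and 0.47. Parp9 (chr16:35938470-35972605, GRCm38, plus strand) and Dtx3l (chr16:35926511-35939151, minus strand) overlap by 682 bases and, since the strand setting of the counting is not given, may share some reads. Per kilobase, Dtx3l, Parp14 and Parp9 were also among the more abundant members, with 95.6, 61.4 and 59.0 RPKM in WT cells given anti-CD3, while Mx1 had 0.588 RPKM there.

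Of the 10 other antiviral effectors, 1 rose and 3 fell in WT cells given anti-CD3, and 0 rose and 3 fell in KO cells, where 9 of the 10 values were below 0. Rsad2, which encodes viperin, was 7.19, 10.6 and 9.50 CPM in WT unstimulated and 2.90, 3.23 and 3.29 CPM in WT anti-CD3 libraries, and 5.56, 5.24 and 9.31 against 3.25, 2.25 and 2.38 CPM in KO libraries. Its change was -1.53 in WT (SE 0.28, adjusted p = 0.000528) and -1.33 in KO cells (SE 0.28, adjusted p = 0.00128). Cmpk2 (chr12:26469204-26479837, GRCm38, plus strand), a nucleotide kinase next to Rsad2 (chr12:26442746-26456452, minus strand), fell from 13.4, 19.6 and 20.4 to 8.99, 7.96 and 7.77 CPM in WT and from 14.4, 14.8 and 30.3 to 7.17, 5.91 and 5.13 CPM in KO libraries (log2 -1.11 and -1.70). Neither gene's stimulated libraries reached the unstimulated ones. Isg20, an RNA exonuclease, was 2.72, 3.12 and 2.77 against 1.02, 1.89 and 1.12 CPM in WT and 5.78, 4.997 and 5.24 against 1.65, 1.69 and 2.27 CPM in KO libraries (-1.06, SE 0.25, adjusted p = 0.00429, and -1.49, SE 0.24, adjusted p = 0.000107). Xaf1, a proapoptotic gene, rose by 0.53 in WT cells (adjusted p = 0.0123) and changed by -0.14 in KO cells (adjusted p = 0.494). The WT calls of Xaf1 and Ifit3b were lost without WT anti-CD3 replicate 2 or WT unstimulated replicate 1, and that of Ifit3b also without WT anti-CD3 replicate 1 or WT unstimulated replicate 3. Bst2, which encodes tetherin, Ifi35 and Ifi27l2a were not called with anti-CD3 in either genotype and rose in WT cells given both antibodies, by 0.70, 0.62 and 0.58 (adjusted p = 0.00224, 0.0147 and 0.0078). The Ifi35 call was lost without either WT both-antibody library or without WT unstimulated replicate 1, and that of Ifi27l2a without WT both-antibody replicate 3. Ifi44, Rtp4 and Trim30a were called in none of the 4 stimulation comparisons. Ifi44 was the lowest member per kilobase (0.213 RPKM in WT unstimulated cells) and its SE of 0.47 leaves room for sizeable changes either way. Ifi27l2a, at 100.3 RPKM in WT unstimulated cells, was the highest, though its near copies may share reads.

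**Figure D3:**
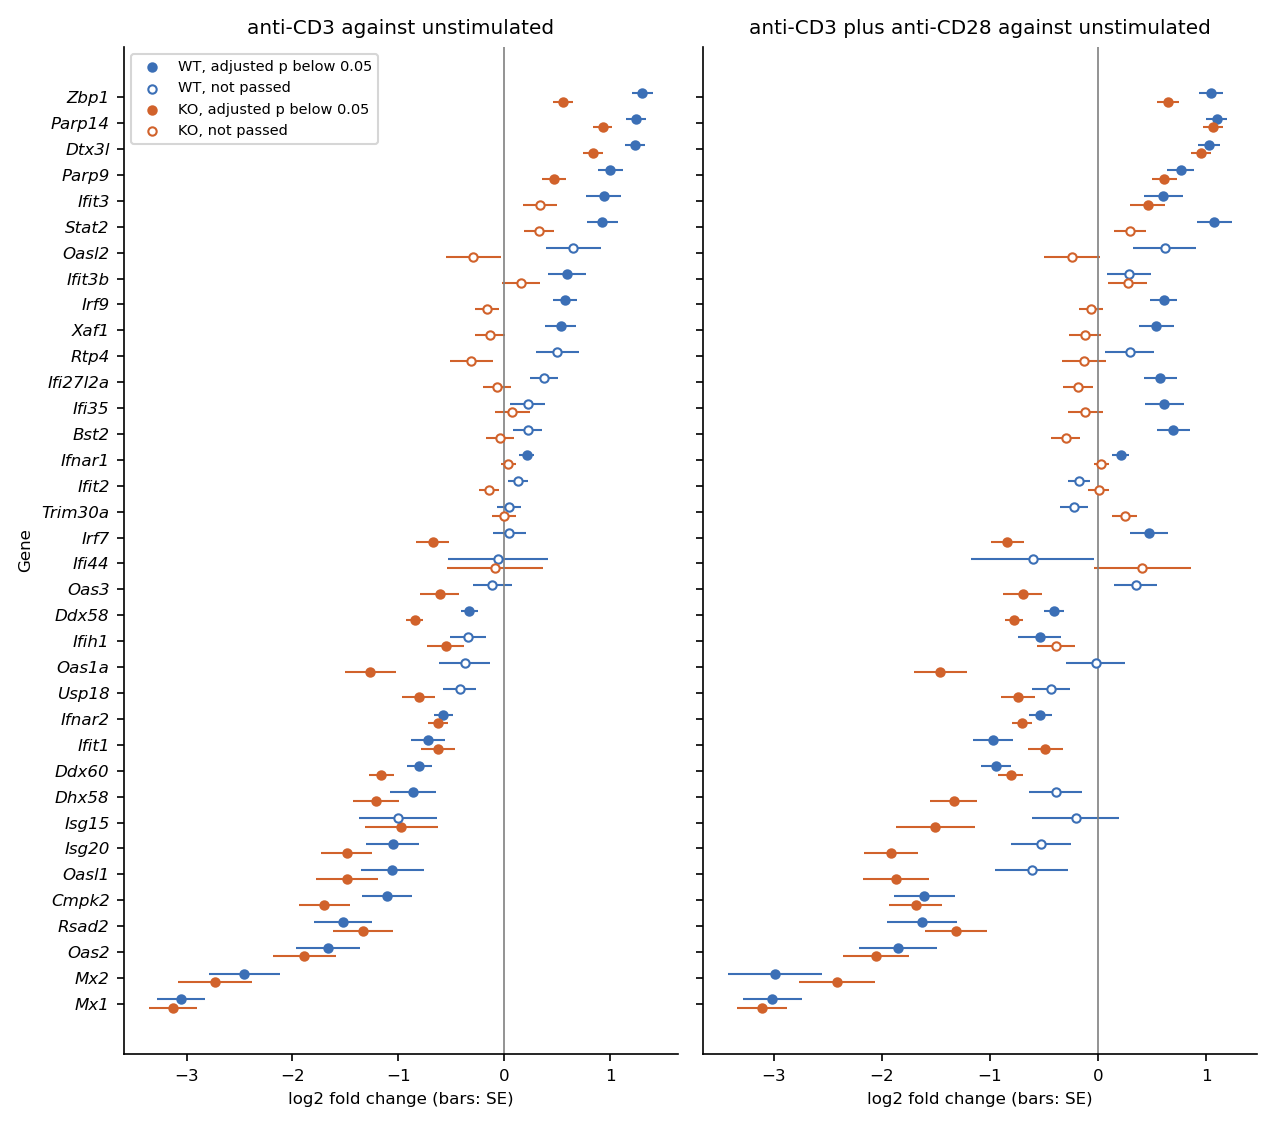
Log2 fold change against unstimulated cells of each of the 36 genes (rows, in the order of the WT anti-CD3 change) with anti-CD3 (left) and both antibodies (right), in WT (blue) and KO (orange) cells. Bars are SEs, filled points passed the threshold; from Zbp1 at 1.3 to Mx1 at -3.05 the WT anti-CD3 changes pass through 0, and KO points mostly lie to the left of WT points.

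Some markers of other cell types were also lower in the stimulated libraries. The 5 B cell markers summed to between 17.1 and 27.2 CPM in unstimulated and between 5.16 and 9.93 CPM in stimulated libraries. Most of this was Cd79b (15.3 to 23.9 against 3.93 to 7.63 CPM), while Cd79a lay between 0.622 and 1.17 and between 0.672 and 1.91 CPM. The 9 myeloid and dendritic markers summed to between 7.47 and 13.7 against 4.63 and 7.28 CPM, with Clec9a at 0 in every unstimulated library and Cd14 at 0 in every stimulated one. Itgax was lower (4.64 to 9.57 against 1.83 to 4.01 CPM) and Cd68 was not (1.33 to 3.28 against 1.54 to 2.75 CPM). The 4 natural killer markers summed to between 7.43 and 11.5 against 3.43 and 6.98 CPM, with Ncr1 at 0 in all stimulated libraries. The 3 markers of plasmacytoid dendritic cells, a strong source of type I interferon, summed to between 1.55 and 3.24 against 0.666 and 2.03 CPM, with Klk1 at 0 in every library. Most of this was Tcf4 (1.55 to 3.21 against 0.666 to 1.97 CPM). Siglech was near 0 and not lower (0 to 0.038 against 0 to 0.117 CPM). In bulk RNA fewer cells of a type and less RNA per cell cannot be told apart, and the part of these cells in the falls was not tested.

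Ranked over the 6 groups by mean CPM, the members had no single order. The highest mean was in KO unstimulated cells for 14 members, in WT anti-CD3 cells for 10, in WT both-antibody cells for 6, in WT unstimulated cells for 5 and in KO both-antibody cells for 1, and in KO anti-CD3 cells for 0. Of all tested genes, 21.2%, 10.5%, 17%, 21.3%, 14.4% and 15.5% had their highest mean in these groups in turn. The lowest mean was in WT unstimulated cells for 13 members, in WT anti-CD3 and in KO anti-CD3 cells for 7 each, in WT both-antibody cells for 6, in KO both-antibody cells for 2 and in KO unstimulated cells for 1, beside 21.9%, 11.8%, 11.7%, 17.7%, 13.6% and 23.4% of all genes. Without KO unstimulated replicate 3, a setting chosen after seeing the data, KO unstimulated cells had the highest mean for 12 members and the lowest for 4, since Mx1 (17.9 against 18.1 CPM) and Cmpk2 (14.6 against 17.8 CPM) then had their highest mean in WT unstimulated cells. Neighbours in the order often overlapped. Parp9 and Dtx3l had the clearest order, with 4 of 5 neighbouring steps free of overlap: WT anti-CD3, WT both antibodies, KO both antibodies and KO anti-CD3 followed each other downwards, above overlapping unstimulated groups. For Ifih1, Irf9, Ifit1, Ifit3b, Oasl2, Usp18 and Ifi44 no step was free of overlap, and without KO unstimulated replicate 3 this held for Usp18 and Ifi44.

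In unstimulated cells 9 members were higher in KO than in WT cells and 0 were lower, a share of 25.0% called. Beside it stood 25.4% of all genes, 15.3% higher and 10.1% lower, so the count over both directions was near the background. Of the 36 values, 19.4% were below 0, beside 50.9% of all genes. Their median was 0.27, or 0.11 without KO unstimulated replicate 3. These values share the same libraries and are not 36 separate observations. The 9 were Dhx58, Irf7, Oas1a, Oas3, Usp18, Isg20, Bst2, Ifi35 and Ifi27l2a. Oas1a had the largest difference, with 9.66, 16.7 and 18.8 CPM in KO against 5.45, 7.60 and 7.70 CPM in WT libraries, no overlap and a log2 difference of 1.13 (SE 0.24, adjusted p = 0.00747). Bst2 was 26.3, 30.2 and 27.5 against 13.8, 15.7 and 17.6 CPM, also with no overlap (0.84, SE 0.14, adjusted p = 0.00381). The 9 genes had a median GC content of 54.1% (50.9% to 57.4%), the other 27 of 47.4%, and WT unstimulated libraries had GC trends from -0.747 to -0.311 where KO unstimulated libraries had 0.163 to 1.15. After a correction for GC content 2 of the 9 passed, Oas1a (0.93, adjusted p = 0.0151) and Bst2 (0.41, adjusted p = 0.0281). Without KO unstimulated replicate 2 or without WT unstimulated replicate 1, 1 member passed, which was Bst2, beside 2.15% and 3.74% of all genes. Without KO unstimulated replicate 1, 14 passed, beside 19.9% of all genes. Without replicate 3 there were 7 higher and 5 lower, beside 30.9% of all genes called.

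**Figure D4:**
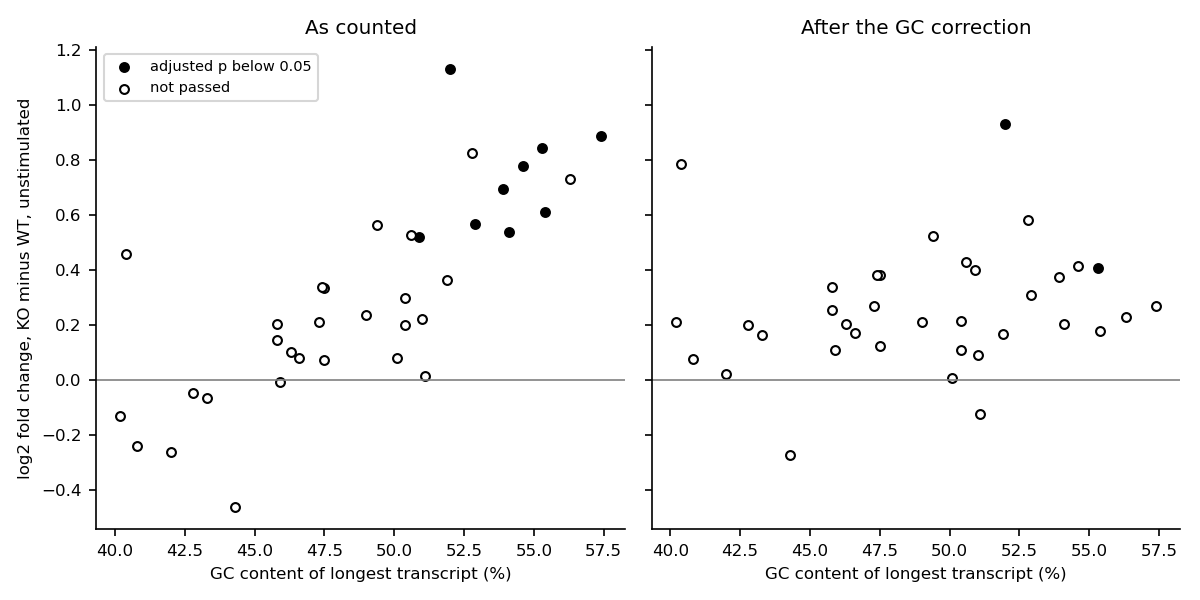
Log2 difference of KO minus WT in unstimulated cells against the GC content of each gene's longest transcript, for the 36 genes as counted (left) and after the GC correction (right). Filled points passed the threshold: 9 genes of at least 50.9% GC as counted, and 2 after the correction.

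With anti-CD3, 7 members were lower and 1 higher in KO than in WT cells, a share of 22.2% beside 15.3% of all genes, 4.8% lower and 10.5% higher. The 7 were Ddx58, Zbp1, Ddx60, Irf9, Ifit2, Parp9 and Dtx3l, from 4 roles, and the member called higher was Bst2. None of the 7 was among the 9 called higher in unstimulated cells, and of those 9 all but Irf7 also had a higher mean in KO than in WT cells with anti-CD3, where Bst2 alone of them passed. Libraries of both genotypes did not overlap for 17 members lower in KO cells and 5 higher, beside 17.6% and 27.4% of all genes. The median difference of the members was -0.22, and that of all genes 0.04.

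Ifit2 was 68.5, 67.5 and 60.8 CPM in KO against 91.8, 98.3 and 94.2 CPM in WT anti-CD3 libraries, a difference of -0.53 (SE 0.09, adjusted p = 0.00142). Zbp1, from the values above, differed by -0.53 (SE 0.10, adjusted p = 0.00177) and Ddx58 by -0.43 (SE 0.08, adjusted p = 0.00193). These 3 calls held in all 26 alternative fits. Irf9 was 150, 137.6 and 131.9 against 197.5, 192.1 and 177.7 CPM (-0.44, SE 0.11, adjusted p = 0.0156), and Parp9 was 216.4, 204.9 and 206.6 against 286.5, 292.4 and 283.2 CPM (-0.46, SE 0.12, adjusted p = 0.0133). Neither gene's groups overlapped. Dtx3l differed by -0.40 (adjusted p = 0.00668) and Ddx60 by -0.49 (adjusted p = 0.0109). Bst2 was 23.6, 24.3 and 33.5 in KO against 19.5, 17.8 and 17.5 CPM in WT libraries (0.58, SE 0.14, adjusted p = 0.00831). Without KO anti-CD3 replicate 3 the calls of Ddx60, Irf9, Parp9, Dtx3l and Bst2 were lost (adjusted p from 0.053 to 0.0942), without WT anti-CD3 replicate 2 those of Ddx60, Irf9 and Parp9, and without WT anti-CD3 replicate 1 that of Irf9. With the GC correction 11 members were lower and 1 higher, beside 22.3% of all genes called.

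With both antibodies 2 members were lower in KO than in WT cells and 0 higher, a share of 5.56% beside 16.1% of all genes, 6.3% lower and 9.84% higher. They were Irf7, at 59.7, 45.5 and 34.5 against 75.8 and 75.4 CPM (-0.70, SE 0.17, adjusted p = 0.0156), and Ddx58, at 111.0, 104.5 and 101.8 against 128.6 and 129.5 CPM (-0.29, SE 0.09, adjusted p = 0.0403). Neither gene's groups overlapped, but without KO both-antibody replicate 2 or WT both-antibody replicate 2 or 3, 0 members passed. Of all genes, 6.78%, 0.252% and 0.0677% passed in these fits. Without KO both-antibody replicate 1 there were 6, beside 34.8% of all genes. The Ddx58 call was lost in 15 of 26 alternative fits. Of the 36 members, 6 passed at an unadjusted p below 0.05 in this comparison, beside 5434 of the 16246 genes tested. Adding anti-CD28 to anti-CD3 gave 0 calls among members in both genotypes, as among all genes (0.0%), by edgeR. Unadjusted p-values were below 0.05 for 6 members in WT and 2 in KO cells, beside 3506 and 1460 of the 16246 genes tested. DESeq2 called 0 members in each, beside 3.0% and 0.0% of all genes. By limma voom 11 members were called in WT and 12 in KO cells. These counts were not above the share of all genes called by voom, 37.3% in WT and 34.2% in KO cells.

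**Figure D5:**
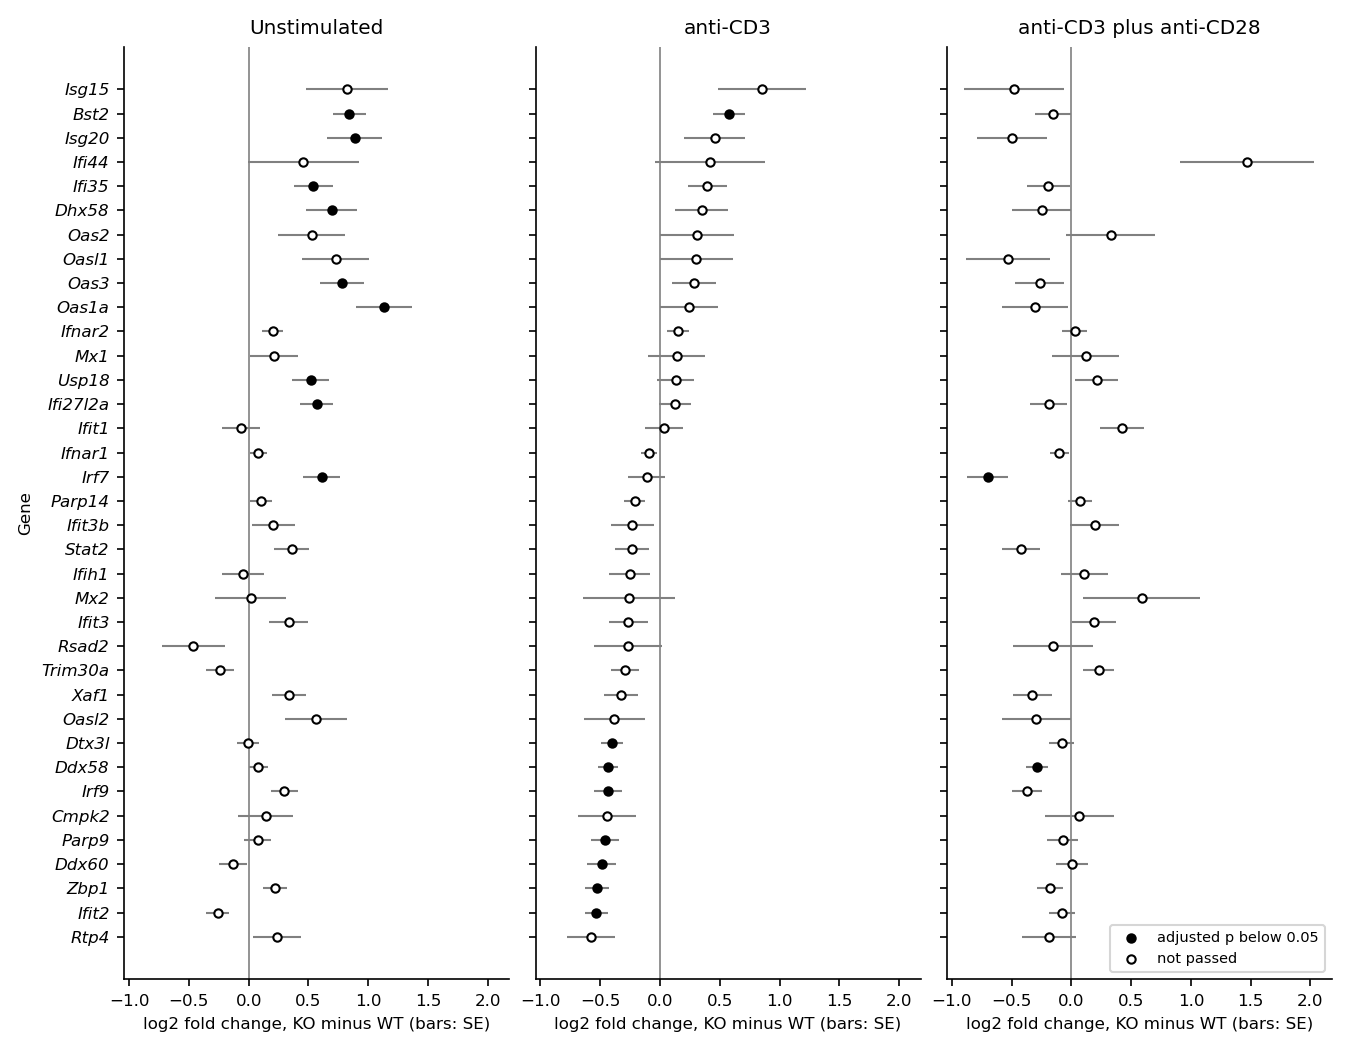
Log2 difference of KO minus WT for the 36 genes (rows, in the order of the anti-CD3 difference) in unstimulated cells, with anti-CD3 and with both antibodies; bars are SEs and filled points passed the threshold. Calls lie to the right in unstimulated cells (9) and mostly to the left with anti-CD3 (7 of 8). With both antibodies Irf7 and Ddx58 passed, both to the left.

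Whether the response itself differed between genotypes was tested as an interaction, the KO response minus the WT response. With anti-CD3 the value was below 0 for 33 of 36 members (91.7%), beside 47.5% of all genes, with a median of -0.39. None passed the threshold in edgeR, where 0.0554% of all genes did (0.0492% higher and 0.00616% lower). An unadjusted p below 0.05 was found for 15 of the 36 members, beside 2399 of the 16246 genes tested. The value nearest the threshold was that of Zbp1 (-0.75, SE 0.14, adjusted p = 0.0502), followed by Irf9 (-0.73, adjusted p = 0.0919) and Ddx58 (-0.52, adjusted p = 0.0927). DESeq2 called 3 members, limma voom 4, and the fit with GC correction 8, all lower, beside 1.33%, 5.65% and 2.27% of all genes. Leaving out KO both-antibody replicate 1 or 3 gave 4 calls, beside 2.14% and 2.26% of all genes, and leaving out any other library gave 0. Without KO unstimulated replicate 3 the median was -0.25. A shared KO unstimulated group enters all 36 values, so they are not 36 separate observations.

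With both antibodies 14 members had a lower value, the KO response being below the WT one, and 1, Trim30a, a higher one. That share of 41.7% stood beside 37.5% of all genes, 19.2% lower and 18.3% higher, so the count over both directions was near the background. Of the 36 values, 77.8% were below 0, beside 48.0% of all genes. Their median was -0.25, or -0.12 without KO unstimulated replicate 3. These values share the same libraries and are not 36 separate observations. The largest differences were those of Oas1a (-1.44, SE 0.36, adjusted p = 0.00675), Isg20 (-1.39, SE 0.37, adjusted p = 0.00912), Irf7 (-1.31, SE 0.23, adjusted p = 0.00339) and Oasl1 (-1.26, SE 0.45, adjusted p = 0.0366). The 14 had a median GC content of 53.4%. After GC correction 8 members passed, all lower, beside 15.6% of all genes, but 9 of the 14 were lost. Those lost were Dhx58, Zbp1, Stat2, Oas3, Oasl1, Isg20, Bst2, Ifi35 and Ifi27l2a. The 8 include Ifit2 and Ddx60, which were not called without the correction. Without WT unstimulated replicate 1 or WT both-antibody replicate 3, 8 passed, and without WT both-antibody replicate 2, 9. Of all genes, 30.2%, 25.0% and 24.1% passed in these fits. Without KO unstimulated replicate 3 there were 10 lower and 2 higher, beside 40.8% of all genes called. Irf7, Irf9 and Oas1a were called in all 26 alternative fits; with the GC correction Irf7 was -0.58 (adjusted p = 0.0112), Irf9 -0.57 (adjusted p = 0.0145) and Oas1a -1.14 (adjusted p = 0.0241). Isg20 and Oasl1 were lost with the GC correction (-0.29, adjusted p = 0.68, and -0.40, adjusted p = 0.563).

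Transcripts of the ligands themselves were at or near the limit of detection. Of 18 type I interferon genes, 12 had 0 counts in every library, Ifnb1 had 1 count over all 17 libraries, and none passed the filter. A count of 0 allows up to 3 counts, or 0.18 CPM in the shallowest library and 0.0187 CPM in the deepest, for counting error only. Most of the 241 ligand counts were from Ifnz (163) and Ifnk (59), and 90 of them came from KO unstimulated replicate 2, the deepest library. Ifng, the gene of type II interferon, had mean levels of 8.59 CPM in WT and 7.06 CPM in KO unstimulated cells, 90.2 and 446 CPM with anti-CD3, and 64.1 and 470 CPM with both antibodies.

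Among 9 genes of receptor-proximal signalling, 5 rose and 0 fell in WT cells given anti-CD3, and 4 rose and 1 fell in KO cells. Of all tested genes, 11.3% rose and 13.1% fell in these WT cells, and 19.6% rose and 17.3% fell in these KO cells. Irf8, a transcription factor that interferon gamma induces, rose from a mean of 4.27 to 36.8 CPM in WT (3.09, SE 0.18, adjusted p = 9.39e-10) and from 8.59 to 122.2 CPM in KO cells (3.80, SE 0.17, adjusted p = 3.2e-11). With anti-CD3 it was higher in KO than in WT cells (1.73, SE 0.15, adjusted p = 8.17e-06). Irf1, another such factor, rose by 1.31 in WT and 0.64 in KO cells. All 15 interferon-induced GTPases, genes strongly induced by interferon gamma, rose in each of the 4 stimulation comparisons, as did 5.23% of all genes. Their medians were 2.14 in WT and 1.53 in KO cells given anti-CD3. Gbp2 rose by 3.50 in WT (SE 0.16, adjusted p = 3.45e-11) and 3.02 in KO cells (SE 0.15, adjusted p = 1.75e-10). In KO against WT cells given anti-CD3, 8 of the 15 were lower and 0 higher, beside 4.8% and 10.5% of all genes. Among the 8 were Gbp8 (-0.62, SE 0.12, adjusted p = 0.00189) and Gbp9 (-0.57, SE 0.11, adjusted p = 0.00218), while the Ifng mean was higher in KO cells.

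A wider list of 50 other interferon-stimulated genes, 47 of them tested, divided like the 36 members. In WT cells given anti-CD3, 13 rose and 11 fell, beside 11.3% and 13.1% of all genes. In KO cells 7 rose and 20 fell, beside 19.6% and 17.3%. Ly6a, which encodes Sca-1, rose by 3.24 in WT and 2.61 in KO cells, while Slfn5 (-2.26 and -2.44) and Epsti1 (-1.02 and -1.39) fell. In KO against WT cells given anti-CD3, 11 of the 47 were lower and 2 higher, beside 4.8% and 10.5% of all genes. Ifi213 was among the lower ones (-0.70, SE 0.11, adjusted p = 0.000731). Of 12 tested sensor adaptors and kinases, 1 rose and 2 fell in WT cells given anti-CD3, a count near the 24.4% of all genes called. The 2 that fell were Tlr7, a receptor for single-stranded RNA (-1.34), and Tmem173, which encodes STING (-0.49). Of 10 negative regulators, 1 rose and 3 fell in WT cells given anti-CD3, beside 11.3% and 13.1% of all genes. The one that rose was Socs1, an inhibitor of JAK kinases, by 1.90 in WT and 1.20 in KO cells (adjusted p = 5.17e-08 and 4.91e-06).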

How the data were processed

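RNA depleted of ribosomal RNA was sequenced as stranded paired-end libraries, per the labels' protocols. The authors deposited whole-number counts per gene and library, with STAR 2.5.2, RSEM 1.3.0 and GRCm38 (mm10) named in the submitters' processing notes. RSEM estimates need not be whole. For rounding, annotation release and strand setting the sources used here give nothing. Names, positions, exon lengths and GC content came from GENCODE vM21 on GRCm38, which matched 53650 of 53679 identifiers, and promoters from RefSeq on GRCm38.p6.

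The deposited counts entered edgeR 4.0.16 (R 4.3.3) without change: filterByExpr, TMM scaling, robust quasi-likelihood with 1 coefficient per group over all 17 libraries (common biological coefficient of variation 0.153), and Benjamini-Hochberg adjustment over 16246 genes in each of 11 contrasts, with a threshold of 0.05. The fit was tested on simulated data. CPM used TMM-scaled totals, and RPKM divided CPM by merged exon length. Depth limits precision for low members such as Mx2, Ifi44 and Isg20.

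The 36 members, the pathway and marker lists and the alternatives were chosen with earlier results of these data known. All members are named, and of each pathway list up to 3 genes per direction and comparison by smallest adjusted p. Alternatives were RLE scaling, DESeq2 1.42.0, limma 3.58.1 voom, a minimum of 1 CPM in 3 libraries or no minimum at all, a fit restricted to the compared groups, a block for replicate number, a loess GC correction (span 0.3), leaving out the 2 libraries of extreme GC trend (replicate 2 of KO unstimulated and replicate 3 of KO both-antibody cells), and leaving out each library. Figures were drawn with matplotlib 3.10.9.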

Additional observations from a re-analysis of the deposited data

Results flagged for a closer look

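The response to both antibodies differed between KO and WT cells for 15 members by the test of the interaction itself (edgeR, adjusted p below 0.05, log2 KO response minus WT response). The sensors Dhx58, Zbp1 and Ddx58 had -0.94, -0.40 and -0.37. The transcription factors Irf7, Stat2 and Irf9 had -1.31, -0.78 and -0.67. The OAS genes Oas1a, Oasl1 and Oas3 had -1.44, -1.26 and -1.05. The effectors Isg20, Bst2, Ifi27l2a, Ifi35 and Xaf1 had -1.39, -1.0, -0.76, -0.73 and -0.66. Trim30a, a regulator of inflammatory signalling, had 0.47, which was -0.15 with the GC correction and was kept by 8 of 26 alternative fits. With the GC correction 9 of the 14 lower calls were lost: Dhx58, Zbp1, Stat2, Oas3, Oasl1, Isg20, Bst2, Ifi35 and Ifi27l2a. The 15 calls are 41.7% of the members and stand beside 37.5% of all genes called in the same contrast, so the count over both directions was near the background. By direction 14 were lower and 1 higher, beside 19.2% and 18.3% of all genes. The part of GC content in them was tested only by the correction.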

How the results depend on the processing

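The total counts of members called in the 4 comparisons with unstimulated cells stayed within 1.5 times under all alternatives run. By voom, however, the rises in KO cells went from 4 to 7 with anti-CD3 and from 5 to 9 with both antibodies. Rises among all genes went from 3185 to 4071 and from 3731 to 4953. The ranges over fits without 1 library each were 19 to 28 (WT anti-CD3), 19 to 23 (KO anti-CD3), 16 to 24 (WT both), 20 to 24 (KO both), 1 to 14 (KO against WT, unstimulated), 3 to 12 (with anti-CD3), 0 to 6 (with both), 0 to 1 and 0 to 0 (both against anti-CD3 in WT and KO), 0 to 4 (interaction, anti-CD3) and 8 to 16 (interaction, both). Shares of all genes called in these fits, in the same order, began with 18.1% to 28.7%, 29.4% to 41.3%, 16.8% to 39.7% and 33.6% to 51.8%. Next came 2.15% to 33.6%, 5.25% to 21.7% and 0.0677% to 34.8%. The last were 0.0% to 8.8%, 0.0% to 3.87%, 0.0% to 2.26% and 24.1% to 45.5%. KO against WT gave 2 calls in unstimulated cells with the GC correction, beside 6.45% of all genes. Percentages in brackets below are the shares of all genes called in the same fit. With anti-CD3, KO against WT gave 14 by limma voom (35.3%), 18 with only the groups compared (32.4%) and 13 without the 2 libraries of extreme GC trend (26.0%). With both antibodies it gave 5 by DESeq2 (22.2%), 15 by voom (57.7%) and 0 with only the groups compared (0.0%). It gave 5 with the GC correction (17.6%) and 1 without those 2 libraries (9.37%). Both against anti-CD3 gave 11 by voom, 13 with only the groups compared and 4 without the 2 libraries in WT cells, and 12 by voom in KO cells. The anti-CD3 interaction gave 1 with RLE scaling (0.0492%), 3 by DESeq2 (1.33%), 4 by voom (5.65%), 2 with no filter (0.219%) and 1 with the CPM filter (0.092%). It gave 4 with only the groups compared (2.57%), 8 with the GC correction (2.27%) and 6 without the 2 libraries (0.831%). The interaction with both gave 9 with only the groups compared (26.3%) and 8 with the GC correction (15.6%), where 9 of the 14 lower calls of the main fit were lost. Among member values that passed in either fit, signs reversed for Irf9 (0.19, KO both, voom), Rsad2 (-0.69, KO both against anti-CD3, voom), Ifit2 (-0.35, KO both, and -0.37, interaction with both, GC correction), Ddx60 (-0.31, KO against WT with both, and -0.52, interaction with both, GC correction), Trim30a (-0.15, interaction with both, GC correction) and Rtp4 (KO both, -0.34 to 0.29 over fits without 1 library each, 0.29 without KO unstimulated replicate 3), where the cause was not tested. Another 300 sign changes, over 110 of 396 member values, were in values that passed in neither fit. Replicate numbers did not pair libraries: over 40 same-numbered pairs the correlation of deviations had a median of 0.0394, 11 were over 0.1, and 7 of 17 libraries matched best with their own number. With the replicate number as a block, 23, 22, 23 and 22 members were called in the 4 stimulation comparisons (23.9%, 36.1%, 34.1% and 45.0%). KO against WT gave 9, 8 and 2 (24.7%, 14.7% and 18.9%). Both against anti-CD3 gave 0 and 0 (0.0% and 0.0%), and the interactions 0 and 13 (0.0369% and 37.4%). Depth limits Mx2, Isg20, Ifi44 and the ligands.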
